A study of Glycine max with 12 samples.

Results

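The 8 genes described here encode the main storage globulins of soybean seed. They are 4 glycinin genes, GY1 (GLYMA_03G163500), GY2 (GLYMA_03G163400), GY4 (GLYMA_10G037100) and GY5 (GLYMA_13G123500), and 4 genes for β-conglycinin subunits, α′ (GLYMA_10G246300), α (GLYMA_20G148300 and GLYMA_20G148400) and β (GLYMA_20G148200). They were chosen by gene identity, as a sign of seed filling within whole pods, out of 57147 IDs in each of the deposited tables. All 8 have a row in both tables.

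Glycinin is the legumin-type globulin of soybean: its precursor is cleaved by a vacuolar-processing enzyme into an acidic and a basic chain, which stay joined and assemble in protein storage vacuoles. β-Conglycinin is the vicilin-type globulin, a trimer drawn from α′, α and β subunits, of which α′ and α carry an extension that β lacks. Both are made in the embryo during seed filling, under the control of seed-maturation transcription factors, and in developing soybean cotyledons the α′ and α subunits are known to appear before β.

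RNA was sequenced from pods of Glycine max cultivar Magellan in 12 libraries, 3 for each of 4 groups. Plants had grown for 16 to 18 days and had opened a first flower when they were divided among 4 growth chambers, 1 per group. Control and water-deficit chambers were held at 28 °C in the day and 24 °C at night, and heat-stress and combined-stress chambers at 38 °C and 28 °C. Control and heat-stress plants received 100% of the transpirable water, whereas water-deficit and combined-stress plants had 30% of it. All plants were inoculated with Bradyrhizobium japonicum, and each library pooled 10 to 15 pods from 8 to 10 plants. Chamber and condition cannot be told apart, and the age, size and seed stage of the pods in each group are not given in the sources used here, so condition and pod stage cannot be told apart either. In whole pods, fewer seed cells and less of an RNA per seed cell also cannot be told apart. The pod label could not be set against tissue markers, because the tables give IDs without names.

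Library totals ran from 17310023 to 26591115 counts, so that the floor of 3 counts stood for 0.114 to 0.176 CPM (counts scaled by the library total and a TMM factor). A gene at 3 counts or fewer was taken as below the detectable level. Pearson correlations of log2 CPM between replicates lay between 0.885 and 0.959 and were 0.942 to 0.951 among the combined-stress libraries. Water deficit replicate 2 stood apart, with the lowest correlation to a replicate of its own group (0.885) and 1391 IDs at an FPKM of 0 despite 10 or more counts, against 612 to 1281 in the other libraries. It held 0 counts of every storage globulin gene, as did both other water-deficit libraries, so its removal leaves the water-deficit counts of these genes at 0.

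In the count table, reads of the 8 storage globulin genes were found almost only in pods under combined stress. Control and water-deficit pods held 0 counts of all 8 genes in every library, and heat-stressed pods held 6 counts in all. The combined-stress libraries held 1407, 200 and 28 counts in replicates 1, 2 and 3, or 0.00631% (95% Wilson interval 0.00599 to 0.00665%), 0.00115% (0.00100 to 0.00132%) and 0.000118% (0.0000814 to 0.000170%) of the library. These intervals cover counting error only. Replicate 3 held the fewest globulin counts although it was the deepest of the 3, with 23800510 counts against 22288577 and 17405225. The β-conglycinin genes supplied nearly all of these reads, with 1371, 198 and 28 counts against 36, 2 and 0 for the glycinin genes.

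**Figure D1:**
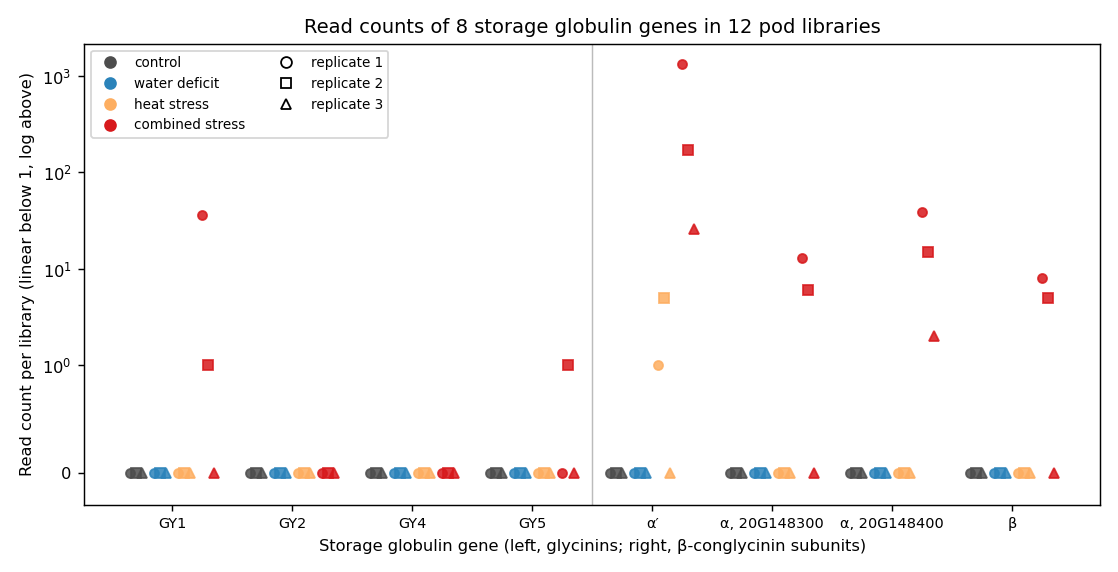
Read count (vertical axis, linear below 1 and logarithmic above) of each storage globulin gene in each library, with color for the group and marker shape for the replicate. All control and water-deficit points lie at 0, the highest heat-stress point is 5, and the α′ gene reaches 1311, 172 and 26 under combined stress.

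Among the glycinins, GY1 was counted only under combined stress and mainly in a single library. Its counts there were 36, 1 and 0 in replicates 1 to 3, against 0 in each of the other 9 libraries, a mean of 0.554 ± 0.911 CPM (SD, n = 3). Its deposited FPKM (fragments mapped, relative to gene length and library size) was 0.423, 0.0339 and 0 in the same libraries. The groups overlapped at 0, since combined stress replicate 3 had no GY1 read. GY5 had 1 count in combined stress replicate 2 and 0 in the other 11 libraries, which is below the detectable level. GY2 and GY4 had 0 counts and 0 FPKM in all 12 libraries. Over the 244864054 counts of all libraries together, 0 counts allow a level of up to 0.0123 CPM, for counting error only. The glycinin genes are close relatives, and how reads that match more than 1 copy were counted is not given in the sources used here, so the split of reads among them is uncertain.

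The α′ subunit gene was the most frequently counted of the 8 and the sole member above 3 counts in all libraries of a group. It had 1311, 172 and 26 counts in combined stress replicates 1, 2 and 3, or 58.5, 9.61 and 1.04 CPM. Heat-stressed pods had 1, 5 and 0 counts, and control and water-deficit pods had 0 in every library. The lowest combined-stress library thus lay above the highest of the other 9, but the replicates of that group spanned a 56.0-fold range, and the mean was 23.0 ± 31.0 CPM (SD, n = 3). Among the tested IDs with counts in each of the 3 combined-stress libraries, the median range between them was 1.39-fold, and 0.0134% had a range as wide as that of α′. IDs at 0 in any of these libraries were left out of that share, and the IDs were not matched to α′ for level.

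Against the floor of 3 counts per library, the combined-stress mean of α′ was at least 171-fold higher than control and at least 141-fold higher than water deficit. Against heat stress the ratio of summed counts, 1509 against 6, was 219.6 (95% exact interval 100.7 to 599, counting error only). These sizes rest largely on combined stress replicate 1. Without it, in a setting chosen after the data were seen, the combined-stress mean was 5.33 CPM, at least 39.5-fold higher than control and at least 32.5-fold higher than water deficit, and the ratio to heat stress, 198 counts against 6, was 43.9 (19.8 to 121). In counts the heat-stress ratio also turned on heat stress replicate 2, which held 5 of the 6 reads. The FPKM of α′ in heat stress replicates 1 to 3 was 0.0901, 0.0851 and 0, which did not place replicate 2 above replicate 1. Without heat stress replicate 2 the ratio, 1509 counts against 1, was 922.3 (165 to 36453), and leaving out either of the other combined-stress libraries gave 268 or 349. Without heat stress replicate 3 the ratio was 147.5 (67.6 to 403). In FPKM, α′ stood at 28.6 in combined stress replicate 1, above 90.7% of the IDs with a positive FPKM in that library. In replicate 2 it stood at 4.79, above 52.0%, and in replicate 3 at 0.532, above 13.9%. The position of α′ among listed transcripts thus differed widely within a single condition.

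Counts of the α subunit genes were low. GLYMA_20G148300 had 13, 6 and 0 counts under combined stress and GLYMA_20G148400 had 39, 15 and 2, with 0 in every library of the other groups. Their mean levels were 0.305 ± 0.291 and 0.886 ± 0.831 CPM (SD, n = 3 each). The β subunit gene had 8, 5 and 0 counts under combined stress and 0 elsewhere, a mean of 0.212 ± 0.188 CPM (SD, n = 3). For each of these 3 genes replicate 3 was the lowest combined-stress library and replicate 1 the highest, the same order as for α′.

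The deposited FPKM of the α genes gave another picture. GLYMA_20G148300 stood at 46.6, 18.3 and 0.840 FPKM in combined stress replicates 1 to 3, and GLYMA_20G148400 at 45.4, 17.8 and 0.895. These are levels per length, and by them both α genes were the highest of the 8 in every combined-stress library, ahead of α′ (28.6, 4.79 and 0.532). The 2 α genes differed from each other by a factor of 1.03, 1.03 and 1.07 in the 3 libraries, less than the spread between replicates, so their order cannot be given. The mean of both α genes was 1.61, 3.77 and 1.63 times the FPKM of α′. In counts, by contrast, the α genes together reached 3.97%, 12.2% and 7.69% of the count of α′. The order below α′ was GY1 (0.423, 0.0339 and 0 FPKM) and β (0.350, 0.365 and 0.108), which overlapped.

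**Figure D2:**
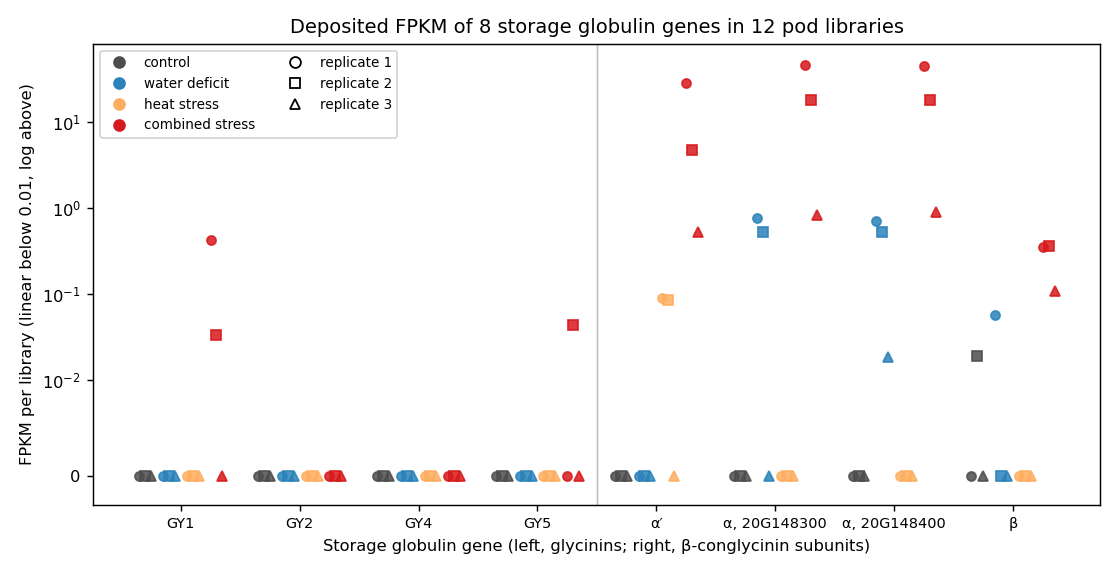
Deposited FPKM (vertical axis, linear below 0.01 and logarithmic above) of each storage globulin gene in each library, with the same colors and marker shapes as the plot of counts. Both α genes reach 46.6 and 45.4 in combined stress replicate 1, and they have values up to 0.771 in water-deficit libraries in which their counts are 0.

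The size of this disagreement can be read from the gene length that the tables imply together, the count scaled to the library total and divided by FPKM. For α′ this was 2058, 2065 and 2054 bases in combined stress replicates 1 to 3, close to the median over all IDs with at least 10 counts (2033 to 2072 bases in these libraries). For GLYMA_20G148300 it was 12.5 and 18.8 bases in replicates 1 and 2, and for GLYMA_20G148400 it was 38.6, 48.4 and 93.8 bases, shorter than any mRNA. GY1 gave 3821 bases at 36 counts in replicate 1 and 1694 bases at 1 count in replicate 2. The β gene gave 1024 and 787 bases at 8 and 5 counts in the same libraries. Under 100 bases was found for 0.215 to 0.304% of the IDs with at least 10 counts in the combined-stress libraries. The α counts are thus much smaller than their FPKM calls for. Whether reads shared by the 2 α copies were left out of the counts was not tested, and the counting rule is not given in the sources used here.

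**Figure D3:**
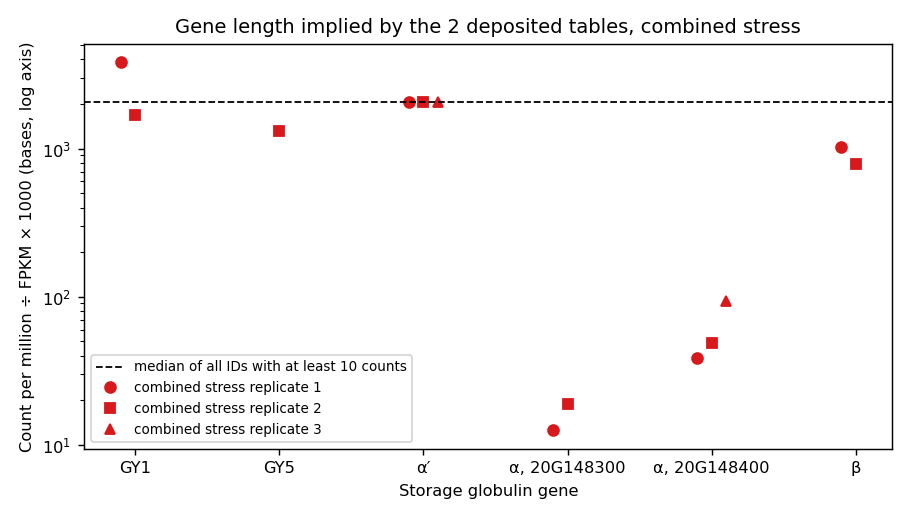
Gene length implied by the tables (vertical axis, bases, logarithmic) for each storage globulin gene with a count in a combined-stress library, with marker shape for the replicate. The α′ points lie on the dashed median of all IDs, whereas the α points lie between 12.5 and 93.8 bases. The GY1, GY5 and β points lie between 787 and 3821 bases.

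FPKM also placed low α values outside combined stress. In water-deficit replicates 1, 2 and 3, GLYMA_20G148300 stood at 0.771, 0.535 and 0 FPKM and GLYMA_20G148400 at 0.707, 0.535 and 0.0189. Neither gene had a count in these libraries, and neither had an FPKM above 0 in a control or heat-stress library. A positive FPKM at 0 counts was not particular to these genes. It was found for 1698, 1616 and 1748 IDs in water-deficit replicates 1, 2 and 3. In replicate 2, the library that stood apart, both genes carry the identical value of 0.534694. The values in water-deficit replicates 1 and 2 approach that of combined stress replicate 3. By limma on log2(FPKM + 1) neither α gene was called between water deficit and control (log2 changes 0.48, SE 0.90, and 0.47, SE 0.88, adjusted p = 1.00 for both). On log2(FPKM + 0.1) the changes were 1.93 (SE 1.36) and 1.98 (SE 1.32), also not called. Both genes were tested through their combined-stress values, and the SE takes in the wide spread of that group. The test therefore could not decide on a change of this size. In all, 15 of the 96 gene and library values were above 0 in counts, 2 of them outside combined stress. In FPKM 24 were above 0, 9 of them outside combined stress. The 8 genes together summed to 1.54 and 1.07 FPKM in water-deficit replicates 1 and 2, against 2.38 in combined stress replicate 3.

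The conditions were compared with edgeR's quasi-likelihood test, with a gene called at a Benjamini-Hochberg adjusted p under 0.05 over all 38737 tested IDs. Only the α′ gene passed the filter on low counts, which it did through the combined-stress libraries, and the other 7 genes were not tested. The α′ gene was not called in any comparison. Against control its fitted log2 change under combined stress was 11.86 (SE 3.10, unadjusted p = 0.0156, edgeR adjusted p = 0.0861), where 13.9% of tested IDs were called in either direction. Against water deficit the adjusted p by edgeR was 0.0920 (unadjusted p = 0.0172), with 13.4% of IDs called. Against heat stress the log2 change was 7.65 (SE 2.24), with an unadjusted p of 0.0229 and an edgeR adjusted p of 0.172, where 5.25% of IDs were called. The groups at 0 counts make these fitted changes depend on the prior count. The folds against the floor depend on its setting of 3 counts instead. They rest largely on combined stress replicate 1 and do not measure the spread between replicates.

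No call was made for the single stresses either, in which α′ had at most 5 counts per library. For heat stress against control the edgeR adjusted p was 0.836, beside 1.89% of IDs called. For water deficit against control both groups were at 0, beside 0.0955% called. The interaction of heat and water deficit asks whether the joint change departs from the sum of the single changes on the log2 scale, and with 2 groups at 0 counts it could not be judged for α′ (edgeR adjusted p = 1.00, with 0.139% of IDs called). Every combined-stress value of α′ lay above every control value, a pattern shared by 20.7% of tested IDs, and above all other 9 libraries, a pattern shared by 6.32%.

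The result of the test for α′ turned on the method and on the combined-stress libraries included. Since α′ entered these tests through its combined-stress counts, the calls that follow are given as a description. DESeq2 called α′ against control (log2 change 11.47, SE 2.74, adjusted p = 0.000491), against water deficit (adjusted p = 0.000798) and against heat stress (adjusted p = 0.0351). It called 17.0%, 17.1% and 8.10% of IDs in these comparisons. The limma-voom test did not call it (adjusted p = 0.492 against control, with 15.8% of IDs called). With edgeR, α′ was called against control without combined stress replicate 1 (adjusted p = 0.00694, with 8.69% of IDs called). It was also called without combined stress replicate 3 (edgeR adjusted p = 0.0101, with 9.67% called), and not without replicate 2 (edgeR adjusted p = 0.166, with 8.01% called).

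**Figure D4:**
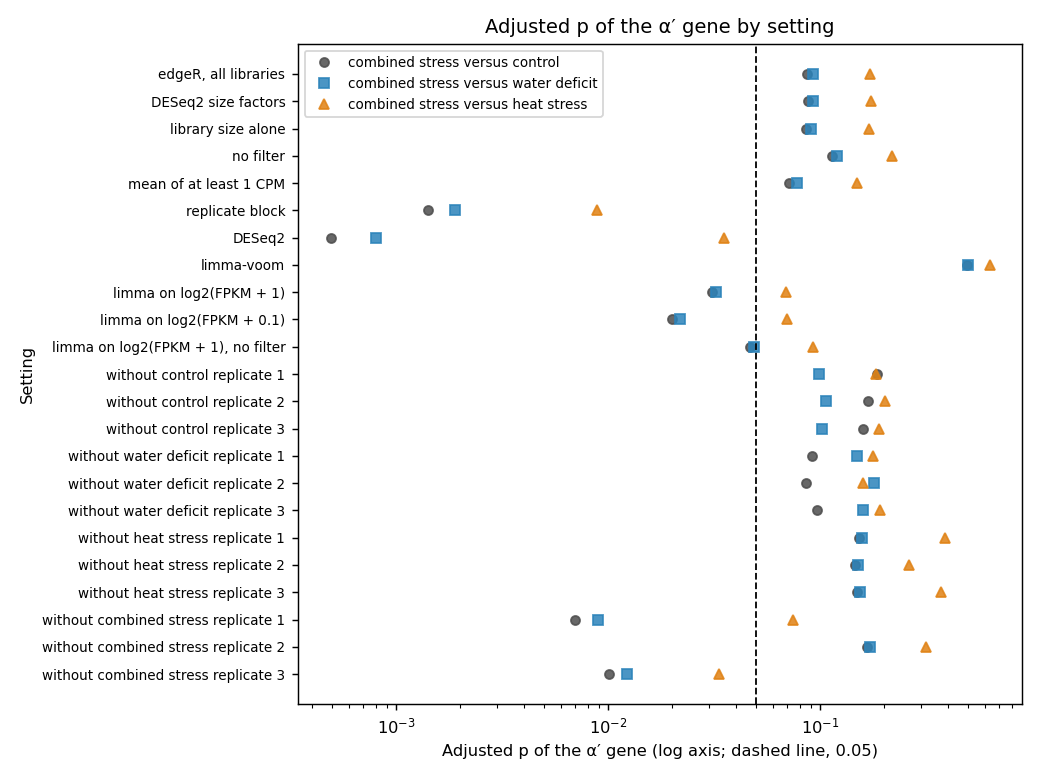
Adjusted p of the α′ gene (horizontal axis, logarithmic, with a dashed line at 0.05) under each setting (vertical axis) for combined stress against control, water deficit and heat stress. Most edgeR settings lie to the right of the line, DESeq2 lies to its left, and so do the edgeR fits against control without combined stress replicate 1 or 3.

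On the FPKM scale, limma on log2(FPKM + 1) could test 3 of the 8 genes, those with a mean FPKM of at least 1 over the 12 libraries. All 3 reached that mean through the combined-stress libraries, where their group means were 21.9, 21.4 and 11.3 FPKM against at most 0.435 in any other group. They were thus tested because they were high under combined stress, and the calls that follow are given as a description. Against control all 3 were called higher under combined stress. The log2 changes were 3.57 for GLYMA_20G148300 (SE 0.90, limma adjusted p = 0.0212), 3.56 for GLYMA_20G148400 (SE 0.88, limma adjusted p = 0.0191) and 2.68 for α′ (SE 0.76, limma adjusted p = 0.0307), beside 18.0% of IDs called. The same 3 genes were called against water deficit, with limma adjusted p-values from 0.0322 to 0.0404 and 17.4% of IDs called. Against heat stress both α genes were called (limma adjusted p = 0.0465 and 0.0432, with 5.86% of IDs called) and α′ was not (limma adjusted p = 0.0689). Changes on this scale understate those of low genes, because 1 is added to every value. Without combined stress replicate 2, a setting chosen after the data were seen, none of the 3 was called against control. The limma adjusted p ran from 0.0652 to 0.0736, with 10.9% of IDs called. Without replicate 1 both α genes were called (limma adjusted p = 0.0411 and 0.0370, with 11.9% of IDs called). In that setting α′ fell under the mean FPKM of 1.

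Other IDs were taken as a comparison: 4 that were listed as further globulin copies and 7 that were listed as genes of developing seed. Both lists came from general knowledge of soybean, and neither the deposited tables nor the gene table used here names these IDs, so they are given as groups. None of the 4 passed the filter. They summed to 30, 16 and 6 counts in combined stress replicates 1 to 3 and to at most 14 in any other library. Those 14 counts were all of 1 ID, in heat stress replicate 1. That ID had 8, 9 and 6 counts in combined stress replicates 1 to 3. Of the 7 seed IDs, 6 were tested and 5 were called higher under combined stress than in control by edgeR, with 0 called lower, and DESeq2 also called 5, where 13.9% of all tested IDs were called by edgeR and 17.0% by DESeq2 in either direction. Without the combined-stress libraries 3 of the 6 would have passed the filter on low counts. The lists were chosen with earlier results of these data known, so these counts are given as a description. They summed to 10030, 7707 and 1700 counts in combined stress replicates 1 to 3, and to between 0 (water deficit replicate 2) and 312 in the other 9 libraries. Replicate 3 was the lowest combined-stress library for 6 of the 7, as it was for α′, α and β. Replicate 1 was the highest combined-stress library for 4 of the 7, whereas in counts it was so for each of α′, α and β. The share of all tested IDs with either order was not taken. Of the 7, 5 had counts in all 3 of these libraries and no overlap with the other groups, a pattern shared by 6.32% of tested IDs. For these 5 the range between the combined-stress libraries was 4.32-fold to 22.9-fold, narrower than the 56.0-fold of α′. The other tested ID had 117, 16 and 0 counts in combined stress replicates 1 to 3, so its range had no upper limit and was not narrower. The part of seed content or pod stage in these differences between replicates was not tested.

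**Figure D5:**
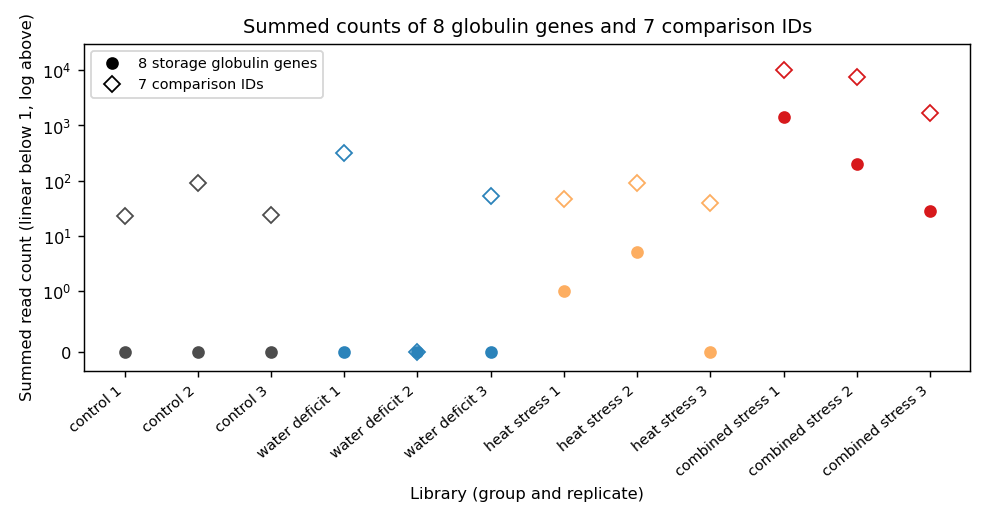
Summed read count (vertical axis, linear below 1 and logarithmic above) of the 8 storage globulin genes (filled circles) and of the 7 comparison IDs of developing seed (open diamonds) in each library, with color for the group. Both sums are highest in the combined-stress libraries where they lie between 28 and 1407 for the globulins and between 1700 and 10030 for the comparison IDs.

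The IDs most like α′ across the 12 libraries were ranked by the Pearson correlation of log2 CPM over 38736 tested IDs. Since 9 libraries lay at or near 0 and 3 did not, each r rests on the combined-stress libraries, and it is given as a description without a p. The first was GLYMA_19G063400 (r = 0.960, Spearman rho = 0.819), with 138, 110.7 and 18.1 CPM in combined stress replicates 1 to 3 and 2.39 to 6.81 CPM elsewhere. The second was GLYMA_20G042600 (r = 0.957, rho = 0.850), with 68, 28 and 23 counts under combined stress and 0 counts in the other 9 libraries. Without combined stress replicates 1 and 2, the libraries farthest from the median of α′, r was 0.777 and 0.853. These values rest mainly on combined stress replicate 3, the only remaining library well above 0 for α′. The next 3 IDs had r from 0.937 to 0.950.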

How the data were processed

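Paired-end NovaSeq reads of pod RNA had been reduced by the authors to gene read counts in 1 deposited table and to FPKM in another, with 12 library columns in each that were matched to samples by their description labels. HISAT2 2.2.1 is named in the submitters' processing notes. The counting tool, strand setting, annotation and genome build are not given in the sources used here. None of the 57147 IDs, the 8 genes included, matched the gene table used here, so gene names come from the rule that chose the 8 genes and no sequences or coordinates are given.

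Groups and replicate numbers came from the sample titles. Deposited counts were tested with edgeR 4.0.16 (R 4.3.3; robust quasi-likelihood fit of 4 group means, TMM, filter on low counts by group, 38737 IDs left), with Benjamini-Hochberg adjustment over all tested IDs. The SE is the log2 change divided by the square root of F. Alternatives were DESeq2 1.42.0, limma-voom and limma (3.58.1) on log2(FPKM + 1) or log2(FPKM + 0.1), other scalings and filters, a replicate block, and each library left out. Scripts were tested on simulated counts with the same spread for every ID. That setting is unlike the wide spread of α′ between replicates and does not bear on its calls. The 8 genes were all named; of the comparison lists, a rule asked for the IDs with the highest mean CPM, but unnamed IDs are printed only for the 2 most like α′. Lists defined by words in gene descriptions could not be built. The genes and lists were chosen with earlier results of these data known. Replicates were pooled from different plants, and p-values measure the spread between such pools. No pair of replicates agreed within counting noise (chi-square per degree of freedom at least 10.0).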

Additional observations from a re-analysis of the deposited data

How the results depend on the processing

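The number of the 8 genes called was 0 in each comparison by edgeR with all libraries, with 1 gene at an unadjusted p under 0.05 for combined stress against each other group. For combined stress against control it was 1 by DESeq2 (17.0% of all IDs called), 3 by limma on log2(FPKM + 1) (18.0%) and on log2(FPKM + 0.1) (17.1%), 4 on log2(FPKM + 1) without a filter (12.2%), and 0 to 1 when a library was left out (8.01 to 16.5%). Against water deficit it was likewise 1, 3, 3, 4 and 0 to 1, beside 17.1%, 17.4%, 16.5%, 11.6% and 7.54 to 16.3% of IDs. Against heat stress it was 1, 2, 2, 2 and 0 to 1, beside 8.10%, 5.86%, 5.17%, 4.11% and 1.37 to 6.51%. Without a filter edgeR tested 6 of the genes and called 0 (lowest adjusted p = 0.0722, for GLYMA_20G148400 against control, where 10.7% of IDs were called). On log2(FPKM + 1) without combined stress replicate 3, 3 genes were called against control, water deficit and heat stress (12.8%, 11.4% and 3.20% of IDs) and 2 in the interaction (0.0949%). Without replicate 1, 2 genes were called against control (11.9%) and 0 against the single stresses, and without replicate 2 none was called in any. With the replicate number as a block, edgeR called 1 gene (α′) against control (adjusted p = 0.00141, where 12.8% of IDs were called), water deficit (12.2%) and heat stress (4.45%). How far libraries with the same number deviated together was measured over IDs by correlation (-0.219 to 0.141, 1 of 18 above 0.1). Pairs with different numbers were not taken for comparison, and low values over many IDs do not speak for single genes. Whether a shared number stands for a shared factor for α′ therefore cannot be decided from these values. DESeq2 size factors, library size alone, a mean of at least 1 CPM, limma-voom and an adjusted p under 0.01 left each count at 0. Values above 0 numbered 15 in counts and 24 in FPKM. The cause of these differences was not tested. In the filtered tests these genes entered through their combined-stress values, so their calls are given as a description. GY2, GY4 and GY5 were not detectable at this depth.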
